A study of Mus musculus with 2 samples.

Results

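The 34 genes described here mark the endothelium, the cell layer that lines blood and lymphatic vessels, in mouse embryonic esophagus at E18.5, shortly before birth. The rule takes every probe set whose annotated gene symbol is 1 of the 34 and uses no measured value, although the list was drawn up with earlier results of these data known. All 34 genes had at least 1 such probe set and together they had 59, out of 18193 genes named on the array. Total RNA was compared between wild-type BALB/c esophagus and esophagus labelled BALB/c and null for both Myf5 and Myod1, which encode factors that start skeletal myogenesis. Each genotype has 1 array, so every difference below is between 2 RNA samples, with no replicate, no error between animals and no test. The sources used here give neither the number of embryos behind each RNA sample nor the alleles that make the null.

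Endothelial cells grow and survive on vascular endothelial growth factor, read by the receptors Kdr and Flt1 in blood vessels and by Flt4 in lymphatic vessels. Angiopoietins act on the receptor Tek, with Tie1 as its partner, and set how stable a vessel is. ETS factors such as Erg, Fli1 and Ets1 and the SoxF factors Sox7, Sox17 and Sox18 switch on endothelial genes, and Prox1 turns venous endothelium into lymphatic endothelium. The esophageal wall holds both kinds of vessel among its muscle layers.

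Signals are the authors' MAS5 values, a linear summary of the probes of a probe set in arbitrary units. A limit of 489, the median of all probe sets of both arrays, stands in for detection calls. Lower signals were raised to 489 before log2 ratios (null-labelled over wild-type) were taken, and a gene below it on 1 array therefore has only a bound, written "at least". A gene with several probe sets is represented by its brightest. The second array is called null-labelled because only Myf5 was clearly lower on it: Myf5 read 4072 in the wild-type and 496 in the null-labelled tissue, Myod1 2001 and 1698. Whether either probe set falls inside a deleted stretch is not known here, so neither value checks the label. Of 12 striated muscle genes, 12 were at least 2-fold lower in the null-labelled tissue, and their summed signal was 407286 and 6665. Sex-linked genes differed as well, with the Y-linked Eif2s3y at 10.6 and 2402 and the X-inactivation gene Xist at 42465 and 24254, so sex and genotype cannot be told apart. The beta-actin control, whose 3' to 5' signal ratio reflects how intact the RNA was, gave 12.6 and 14.2, and the Gapdh control 10.5 and 6.96. Signal was thus strongly weighted to the 3' end on both arrays, and the controls differed between arrays in opposite directions. Where each probe set lies in its gene is not known here, so the effect on single ratios was not tested. In whole tissue, fewer cells of a type and less RNA per cell cannot be told apart.

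The endothelial genes showed no common direction. Of the 34, 28 reached the limit on at least 1 array, 21 of them on both. In the null-labelled tissue 3 of these 28 were at least 2-fold higher, Angpt2, Flt1 and Emcn, against 6.01% of all 13315 measured genes. At least 2-fold lower were 2, Sox17 and Ecscr, against 5.36% of all measured genes. A ratio above 0 was found for 16 of the 28, against 56.6% of all measured genes. The median log2 ratio was 0.057 for the members and 0.086 for all measured genes, and the members ranged from -1.33 to 1.26. At least 4-fold higher or lower were 0 members, against 0.158% and 1.07% of all measured genes, while the 12 striated muscle genes had a median of -5.90.

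**Figure D1:**
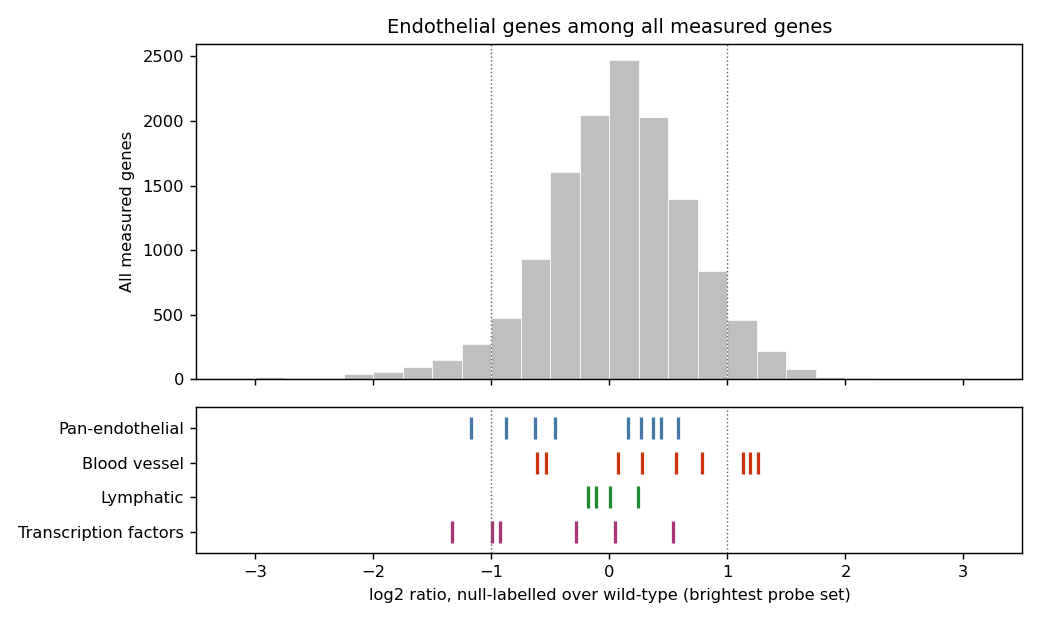
Top, number of all measured genes by log2 ratio (null-labelled over wild-type, brightest probe set), drawn from -3.5 to 3.5; bottom, 1 tick for each of the 28 measured endothelial genes, in 4 role groups. Dotted lines mark 2-fold; 3 members lie above the upper line and 2 below the lower.

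The check of the label against the genes that define endothelium gave a mixed picture. Cdh5, the cadherin of endothelial junctions, read 672 and 866 at its brightest probe set, and Kdr, the main growth factor receptor, 2159 and 1415. Tek read 1490 and 1563, and Cd34, a sialomucin of vessel and progenitor surfaces, 2850 and 3184. These 4 were above the limit on both arrays. Pecam1, the platelet and endothelial adhesion molecule, read 417 and 76.1, Tie1 319 and 65.4, and Icam2, an adhesion molecule of resting endothelium, 450 and 336. Vwf, the clotting factor stored in endothelial granules, read 175 and 177. These 4 did not reach the limit on either array, and neither did the transcription factors Fli1 and Tal1, which makes up the 6 members with no measured ratio.

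**Figure D2:**
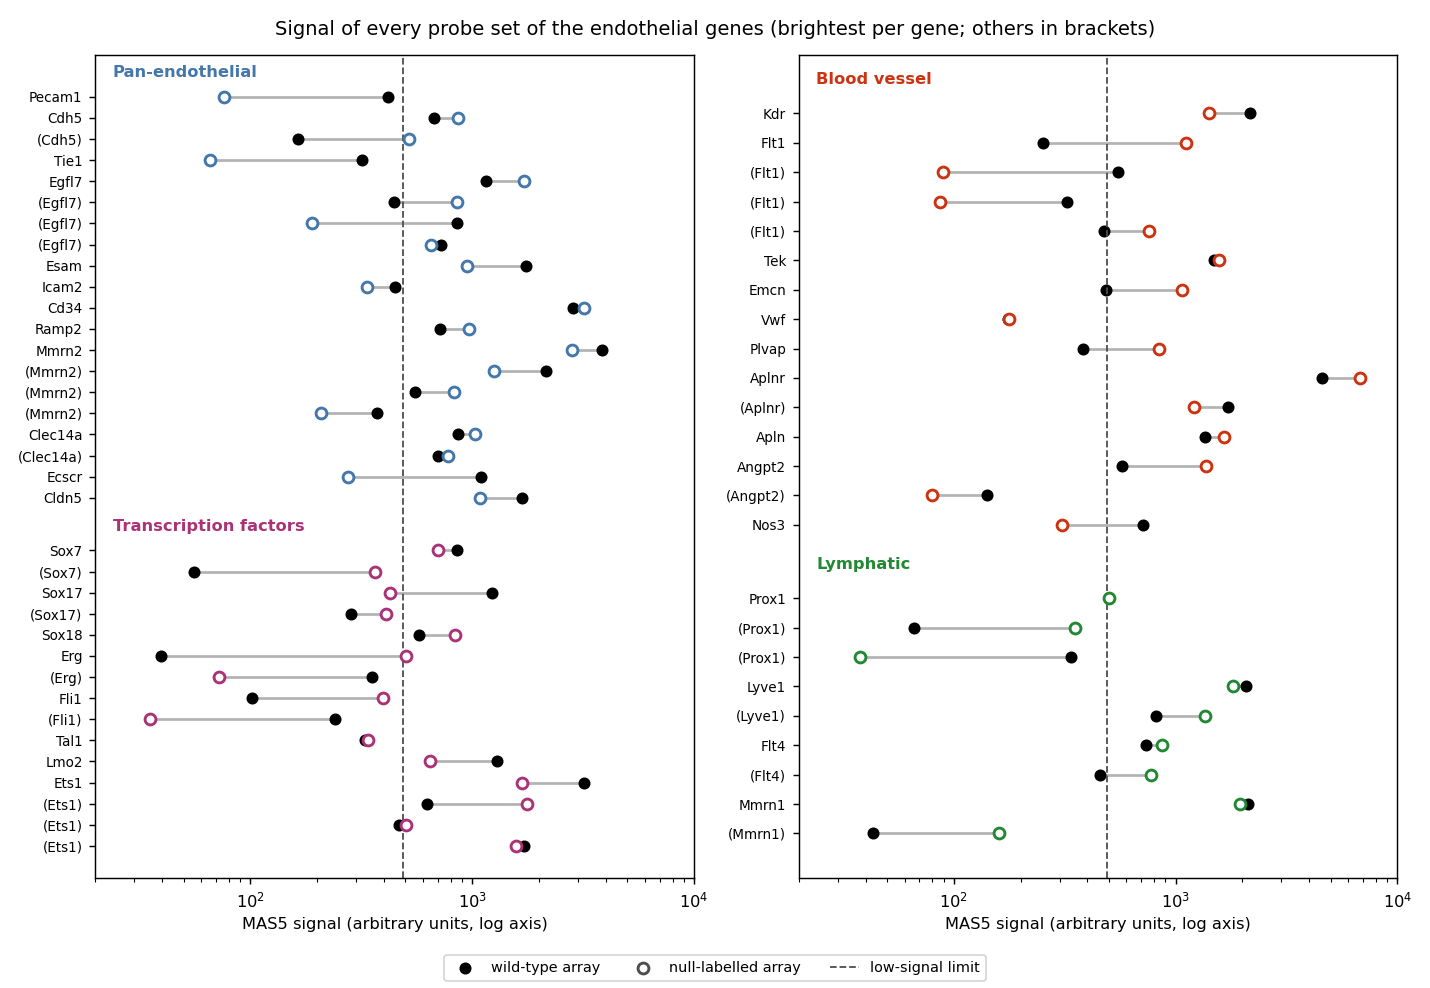
MAS5 signal, in arbitrary units on a log axis, of all 59 probe sets of the 34 genes; filled points are the wild-type array, open points the null-labelled array, and the dashed line is the limit of 489. Below the limit on both arrays lie 16 probe sets, and 14 cross it.

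Among the 12 genes found across endothelium, 9 were measured, and their median log2 ratio was 0.16, with 0 at least 2-fold higher and 1 lower. That median was below 0 in 5 of 8 alternatives, from -0.44 to -0.071, so it gives no direction. Ecscr, which encodes an endothelial cell surface protein, was the lower gene, with signals of 1100 and 275, at least 2.25-fold lower. It has 1 probe set. Esam, an adhesion molecule of endothelial tight junctions, read 1742 and 951, 1.83-fold lower, and the tight junction gene Cldn5 read 1678 and 1083, 1.55-fold lower. Mmrn2, a matrix protein deposited around endothelium, was brightest at 3858 and 2802, 1.38-fold lower. In the other direction, Ramp2, the partner of the adrenomedullin receptor, read 716 and 969, 1.35-fold higher, and Cd34 was 1.12-fold higher. Among the junction genes Cdh5 was 1.29-fold higher while Esam and Cldn5 were lower, but the direction of Cdh5 is not settled. Its log2 ratio was -0.021 with loess scaling and -0.0061 with quantile normalization. With loess Esam was at -1.02 and Cldn5 at -0.76. Clec14a, a lectin-like surface protein, was the most even gene with several probe sets, at 1.20-fold higher and a second log2 ratio of 0.15.

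Egfl7, a secreted endothelial protein, shows how far probe sets of 1 gene can differ here. Its brightest probe set read 1152 and 1719, 1.49-fold higher. Another read 849 and 189, with a log2 bound of -0.80, and the next read 445 and 856, with a log2 bound of 0.81. The last read 725 and 653. Signs therefore split evenly within the gene, and no direction can be given for it. Mmrn2 behaved in the same way, with log2 ratios of -0.46, -0.79 and 0.58 at its 3 measured probe sets.

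Blood vessel receptors, ligands and surface genes had the highest median of the 4 role groups, 0.56 over 9 measured of 10, with 3 at least 2-fold higher and 0 lower. Bounds make up 4 of the 9 ratios, and over the 5 measured on both arrays the median was 0.28. Angpt2, the angiopoietin that loosens vessels and is released by sprouting endothelium, read 575 and 1375, 2.39-fold higher. It was the member with the highest ratio once signals were raised to 489, and the only 1 of the 5 genes beyond 2-fold that was above the limit on both arrays. Without a limit the log2 ratio was 1.23 for Angpt2, 2.08 for Flt1 and 3.23 for Erg. A dimmer Angpt2 probe set read 141 and 79.9, below the limit on both. Emcn, a sialomucin of venous and capillary endothelium, read 486 and 1070, at least 2.19-fold higher, with its wild-type signal just under the limit. Plvap, which forms the diaphragms of fenestrated capillaries, read 381 and 841, at least 1.72-fold higher.

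The growth factor receptors of this group did not move together. Flt1, which binds the growth factor tightly and limits its supply to Kdr, had 4 probe sets. The brightest read 253 and 1118, at least 2.28-fold higher, but the median over its measured probe sets was only 0.63 on the log2 scale, under 2-fold. A second read 476 and 757, also higher, with a log2 bound of 0.63. Another went the other way, from 552.5 to 89.2, with a log2 bound of -0.18, and the last, at 324 and 87.0, stayed under the limit throughout. Kdr, with 1 probe set, was 1.53-fold lower. Tek, the angiopoietin receptor, was 1.05-fold higher, beside 2.39-fold for its ligand Angpt2.

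Apelin signalling, which guides the growth and calibre of vessels, had both of its genes above the limit on both arrays. The ligand Apln read 1357 and 1645, 1.21-fold higher. Its receptor Aplnr was brightest at 4569 and 6750, 1.48-fold higher, but its other probe set read 1724 and 1204, a log2 ratio of -0.52. Nos3, the endothelial nitric oxide synthase, read 711 and 307, at least 1.45-fold lower.

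**Figure D3:**
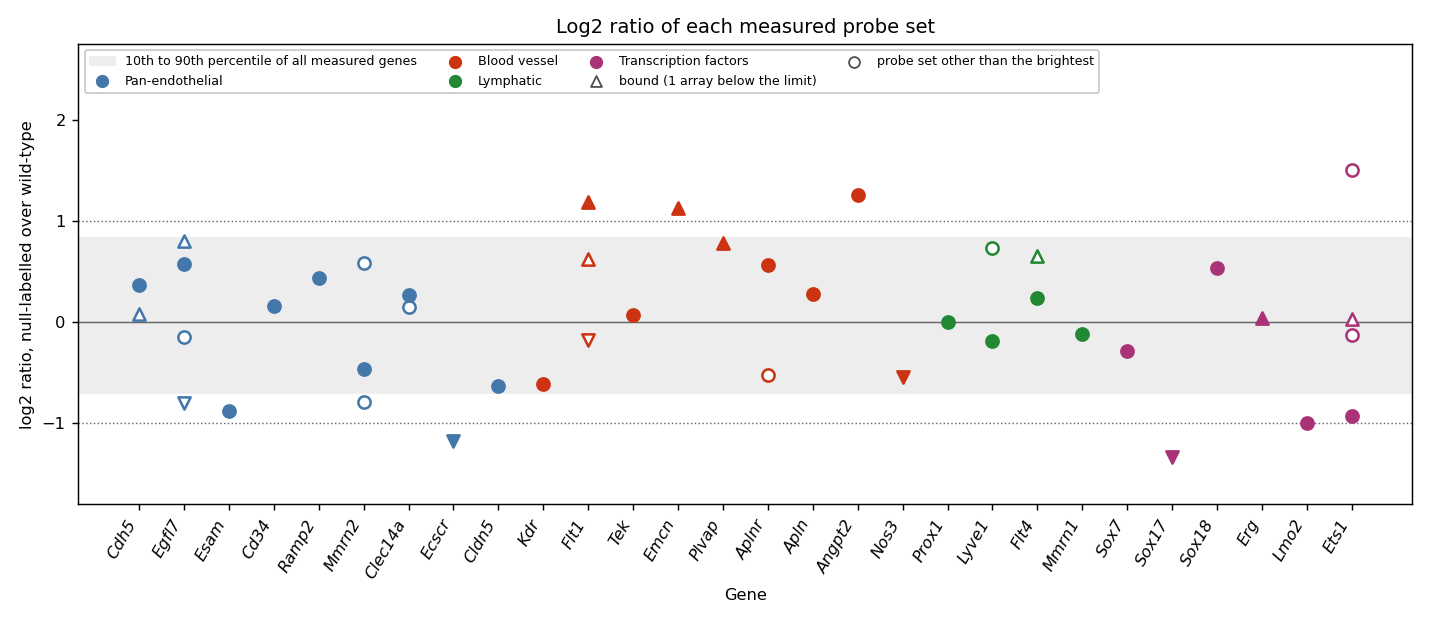
Log2 ratio, null-labelled over wild-type, for each of the 43 measured probe sets of the 28 measured genes. Filled symbols are the brightest probe set of a gene, triangles are bounds, dotted lines mark 2-fold and the grey band spans the 10th to the 90th percentile of all measured genes (-0.70 to 0.83); Ets1, Egfl7, Mmrn2, Flt1, Aplnr and Lyve1 have probe sets on both sides of 0.

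Lymphatic genes, the smallest group, had the narrowest range at the brightest probe sets. All 4 were above the limit on both arrays, 0 were 2-fold apart in either direction, and their log2 ratios ran from -0.18 to 0.24 with a median of -0.058. Prox1, the master factor of lymphatic identity, read 503 on both arrays, close above the limit. Its other 2 probe sets were below the limit on both, at 66.3 and 352 and at 338 and 37.6. Mmrn1, a multimerin of lymphatic endothelium and platelets, read 2118 and 1952, 1.09-fold lower. Lyve1, the hyaluronan receptor of lymphatic vessels that some tissue macrophages also make, read 2066 and 1820, 1.14-fold lower. Flt4, the receptor for the lymphatic growth factor Vegfc, read 737 and 869, 1.18-fold higher. The second probe sets of Lyve1 (817.5 and 1356, a log2 ratio of 0.73) and of Flt4 (455 and 771, a bound of 0.66) both read higher in the null-labelled tissue. When the probe sets of each gene were replaced by their median, the lymphatic median was 0.14 and the blood vessel median 0.28. Whether blood and lymphatic genes differed cannot be tested with 1 array each.

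Transcription factors had the lowest median, -0.60 over 6 measured of 8, with 0 at least 2-fold higher and 1 lower. Sox17, a SoxF factor of arterial endothelium, read 1232 and 425, at least 2.52-fold lower. This was the lowest ratio of all members once low signals were raised to the limit. Its rank is not settled, because Sox17 and Ecscr both have only bounds. Without a limit the log2 ratio was -1.50 for Sox17 and -1.94 for Ecscr. The brighter Sox17 probe set has an ID ending in _x_at, which marks probes that may also match other transcripts. The second Sox17 probe set, at 285 and 408, stayed under the limit throughout. Lmo2, a bridging protein of blood and endothelial transcription complexes, read 1290 and 647, 1.99-fold lower, just inside 2-fold. The other SoxF factors had ratios of opposite sign: Sox7 read 855 and 703, 1.22-fold lower, and Sox18 575 and 832, 1.45-fold higher. Both log2 ratios, -0.28 and 0.53, were smaller than the SD between probe sets of 1 gene, 0.56. With loess scaling they were -0.66 for Sox7 and 0.098 for Sox18.

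The ETS factors were either dim or discordant between probe sets. With signals raised to 489, Ets1 had the widest spread of any member, 2.43 on the log2 scale over 4 measured probe sets. Its brightest, with an ID ending in _s_at, read 3194 and 1683, 1.90-fold lower. Another read 624 and 1767, 2.83-fold higher, the highest ratio of any member probe set with signals raised in this way. The remaining pair read 1712 and 1567 and, near the limit, 467 and 501. Erg, which maintains endothelial identity, read 39.7 and 504. The null-labelled signal was close to the limit, so its ratio is bounded at only 1.03-fold. The other Erg probe set read 355 and 72.3. Fli1 read 101 and 395 at its brightest and 240 and 35.1 at its other probe set, and Tal1, a factor of blood and endothelial precursors, 330 and 338. When probe sets were replaced by their median, Ets1 had a log2 ratio of -0.046 and the group's median was -0.16. Without _x_at and _s_at probe sets, which leaves out Sox17, Ets1 had a log2 ratio of -0.13 and the group's median was -0.13.

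The disagreement between probe sets is the only error these arrays give. Over all genes with at least 2 measured probe sets, 5455 genes, the pooled SD of log2 ratios within a gene was 0.56. Bounds entered it as if they were measured ratios, which can understate how far probe sets differ. Flt1 probe sets that entered at 1.19 and -0.18, for example, had ratios of 2.08 and -2.43 without a limit. For the 9 endothelial genes with several measured probe sets it was 0.72. Signs were the same throughout in 3 of these 9 (Cdh5, Clec14a and Flt4), against 47.7% of the 5455 genes, and the ratios spanned more than 1 on the log2 scale in 5 of the 9, against 28.3%. Larger than 0.56 in size were the ratios of 13 of the 28 measured members, 46.4%, against 33.8% of all measured genes. Per probe set, 4 of 43 were at least 2-fold higher, against 5.94% of all measured named probe sets, and 2 were at least 2-fold lower, against 4.94%.

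Because ETS and SoxF factors are themselves members, promoters of the members were searched for their core letters. RefSeq promoters of 300 bases (GRCm38.p6) were at hand for 15 of the 34 genes, 21 promoters in all. The SOX letters ACAAAG were found, on either strand, in 4 of 21 (19.0%) and in 18.7% of all 32851 promoters, and ACAATG in 2 of 21 (9.52%) and in 12.6%. The ETS letters CCGGAAG were in 0 of 21 and in 8.86% of all promoters. A match is only a description of letters, and no match says only that these letters are not in that window. The 6 matches, which overlapped no other match, are shown because they lie at blood vessel genes (Apln, Tek), lymphatic genes (Prox1, Mmrn1) and others (Egfl7, Erg), with the core or its reverse complement in capitals. The windows lie at chrX:48035051-48035080 (minus strand), chr4:94739251-94739280 (plus), chr1:190169672-190169701 (minus), chr6:60944075-60944104 (plus), chr2:26586390-26586419 (plus) and chr16:95459452-95459481 (minus).
Apln: cagccgctcggcCTTTGTtgtggggccacc
Tek: accttacttgtaACAAAGatccctctgccc
Prox1: gagtccttctccCTTTGTcttgtttattct
Mmrn1: tgcgtgcattgaACAATGtggccttaaatt
Egfl7: cagtcaggatgtACAAAGgaggctcgcaag
Erg: caagaaaaacaaCATTGTtttcagggtctc
The Tek match begins 26 bases before the start site and the others 121 to 234 bases before it. At the brightest probe sets, Apln, Tek, Prox1 and Mmrn1 had log2 ratios from -0.12 to 0.28, while Egfl7 and Erg have no settled direction.

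The partners of these genes in vessel signalling were mixed in the same way. Of 27 listed partners of blood vessel signalling, 23 were measured, 4 were at least 2-fold higher and 2 lower, with a median of 0.31. Of all measured genes 6.01% were higher and 5.36% lower, with a median of 0.086, and these values apply beside each list below. Bounds make up 10 of the 23 ratios. Hhex, a homeobox factor of endothelial precursors, read 429 and 1280, at least 2.62-fold higher. The Notch ligand Jag1 read 1928 and 5024, 2.61-fold higher at the brightest of its probe sets, and 776 and 925 at its second. Hey1, a Notch target, read 2770 and 1272, 2.18-fold lower. Eng, a co-receptor for bone morphogenetic proteins on endothelium, was brightest at 1125 and 461, at least 2.30-fold lower, but its other probe set read 445 and 873, higher. The growth factor Vegfa read 3774 and 2539, 1.49-fold lower, and Angpt1, which opposes Angpt2 at Tek, 1295 and 2499, 1.93-fold higher.

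Of 13 partners of lymphatic signalling on the array, 12 were measured, 1 was at least 2-fold higher and 0 lower, with a median of 0.24. Nrp2, the co-receptor of Flt4, read 2148 and 5118, 2.38-fold higher at the brightest of 3 measured probe sets, and the others were also higher, with log2 ratios of 0.49 and 0.79. Vegfc read 3075 and 2437 at its brightest probe set, 1.26-fold lower, while 2 others were higher (log2 ratios of 0.34 and 0.13). Pdpn, a glycoprotein of lymphatic vessels that other cells also make, read 19591 and 19424. Nrp2 and Pdpn are also made outside vessels.

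Of 24 further endothelial genes on the array, 19 were measured and 0 were 2-fold apart in either direction, with a median of -0.29. Ratios of 13 were below 0 and of 6 above 0, where 56.6% of all measured genes were above 0. Cd93, a lectin-like endothelial receptor, read 2396 and 1297, 1.85-fold lower, at its brightest probe set, with a second log2 ratio of -0.11. Adgrf5, an adhesion receptor of endothelium and lung, was 1.70-fold lower at 1 probe set and higher at another (a bound of 0.91). The median of this list was below 0 under the main setting and each of 8 alternatives, and the median of the vessel signalling partners above 0 in all 9. These were lists of different genes, and the difference between them was not tested.

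**Figure D4:**
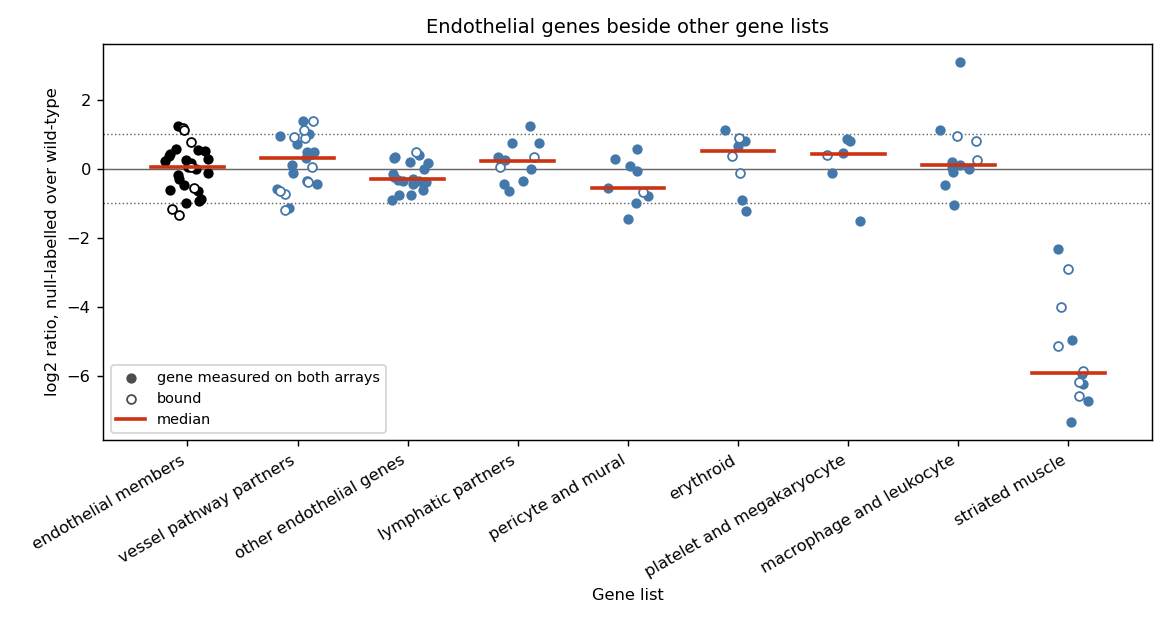
Log2 ratio, null-labelled over wild-type, for each measured gene of the endothelial members and of 8 other lists; open points are bounds, red lines are medians and dotted lines mark 2-fold. Endothelial members scatter around a median of 0.057, and the 12 striated muscle genes lie at a median of -5.90.

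Markers of the cells next to endothelium and inside vessels were read beside these values, and their part in any member's ratio was not tested. Of 12 genes of pericytes and mural cells, which wrap vessels, 9 were measured, 0 were at least 2-fold higher and 1 lower, with a median of -0.55 and a summed signal of 32055 and 30827. That median was -0.14 with medians over probe sets, -0.071 with a limit at either the 25th or 75th percentile and 0.0020 without a limit, so it gives no firm direction. Pdgfrb, the receptor that recruits pericytes, read 2136 and 787, 2.71-fold lower, and Rgs5 7070 and 4073.5, 1.74-fold lower, at its brightest probe set. Other Rgs5 probe sets read 1060 and 1626 (a log2 ratio of 0.62) and 677 and 718. Notch3 went the other way at 4080 and 6051, 1.48-fold higher. Of 11 erythroid genes on the array, 8 were measured, 1 was at least 2-fold higher and 1 lower (median 0.52), and their summed signal was 10629 and 9724. The heme enzyme gene Alas2 read 4576 and 2466, 1.86-fold lower, whereas Hemgn, a nuclear protein of red cell precursors, read 1047 and 2276, 2.17-fold higher. Of 10 platelet and megakaryocyte genes, 6 were measured, 0 were higher and 1 lower (median 0.43), with a summed signal of 16698 and 16577. Mmrn1 is a platelet gene as well, and this list was mixed. Pf4, a platelet chemokine, read 11956 and 10930, 1.09-fold lower, and the chemokine Ppbp was 2.85-fold lower. The platelet receptor subunits Itga2b and Gp1bb were 1.84-fold and 1.77-fold higher.

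Macrophage and leukocyte genes bear on Lyve1. Of 17 on the array, 13 were measured, with 2 at least 2-fold higher, 1 lower, a median of 0.11 and a summed signal of 37999 and 42189. Csf1r, the receptor that macrophages depend on, read 14020 and 14108. Mrc1, a mannose receptor of tissue macrophages that often make Lyve1, read 2454 and 2289, 1.07-fold lower. Ptprc, present on all white blood cells, read 585 and 5010, 8.57-fold higher, at its brighter probe set, with the wild-type signal not far above the limit. The other Ptprc probe set, at 28.8 and 259, was below the limit on both arrays. Below the limit on both arrays were 4 of the macrophage and leukocyte genes and 4 of the platelet and megakaryocyte genes. The same held for 3 of the erythroid genes and 3 of the pericyte and mural genes.

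Scaling and the limit decided how many members passed 2-fold. With loess on signal 0 members were at least 2-fold higher, against 3.43% of all measured genes, and 4 were lower, against 7.16%. Without a limit 6 were higher and 5 lower, against 19.5% and 9.37%. A limit at the 75th percentile left 12 members measured, with 0 of them 2-fold higher or lower, against 1.85% and 4.8%. Loess moved the median of all measured genes from 0.086 to -0.021 and that of the members from 0.057 to -0.12. The blood vessel median stayed above 0 and the transcription factor median below 0 in all 9 settings, but at the 75th percentile the latter rests on Ets1 alone, whose probe sets disagree. The pan-endothelial median changed sign.

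**Figure D5:**
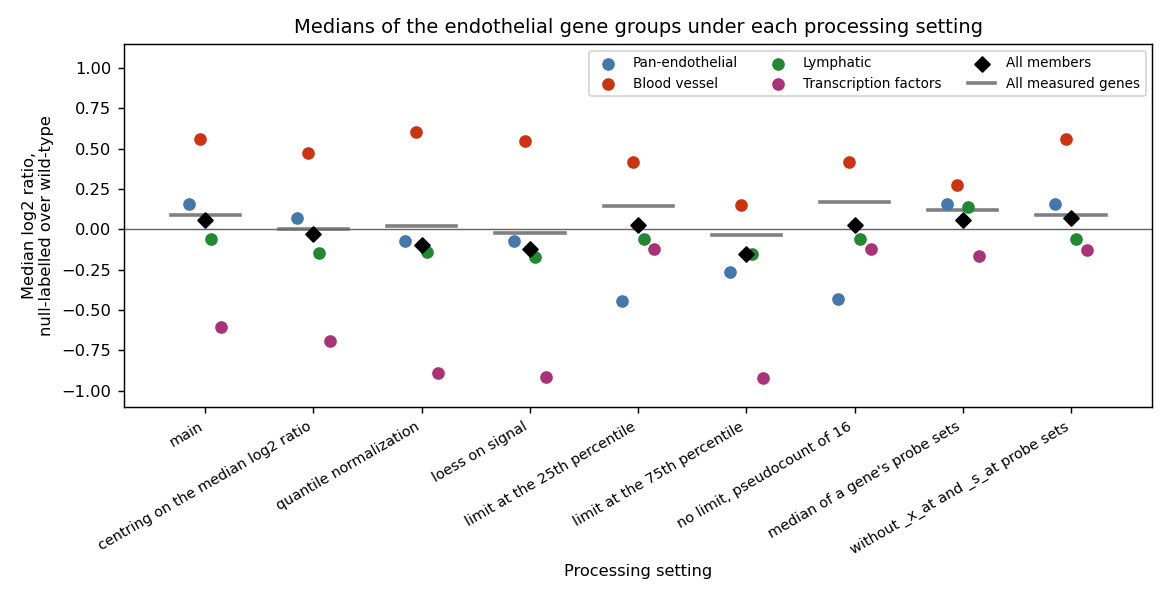
Median log2 ratio, null-labelled over wild-type, for the 4 role groups (coloured points), all members (black diamonds) and all measured genes (grey bars) under the main setting and 8 alternatives. Blood vessel medians lie between 0.15 and 0.61, transcription factor medians between -0.92 and -0.12, and the medians of all members between -0.15 and 0.069.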

How the data were processed

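Per the labels' protocols, biotinylated cRNA made from 6 µg of total RNA was hybridized to Affymetrix arrays. The authors deposited intensities on a linear scale. MAS5 is the tool named in the submitters' processing notes, with its version and settings not given there. Each array had a mean of 1500 after trimming 2% from each end. Of 45037 non-control probe sets, 34945 have 1 symbol in GEO's platform annotation, 932 several and 9160 none here; 34741 of those with 1 symbol were checked by Entrez ID against RefSeq (GRCm38.p6). Probe sets with several symbols (2 for Ramp2 and Vps25) were left out. Log2 ratios were computed from these intensities after raising signals under 489 to it. Each of the 2 groups has 1 array, so values and sizes are given without a test, and the number of arrays limits precision. Genes were named if at least 2-fold apart, discordant between probe sets or among the brightest of their group, and some others were named for their role. Members and lists were chosen with earlier results of these data known. Alternatives were median centring, quantile normalization, loess (span 0.3), limits at the 25th and 75th percentiles, no limit (pseudocount 16), medians over probe sets of 1 gene, omission of _x_at and _s_at probe sets, and a 4-fold threshold. Scripts were tested on simulated data. Python 3.11.15, numpy 2.4.6, pandas 2.3.3 and statsmodels 0.14.6 were used.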

Additional observations from a re-analysis of the deposited data

How the results depend on the processing

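No paired analysis was possible because each group has 1 array. A median counted as moved when it shifted by more than 0.56 (the SD within a gene) divided by the square root of its number of genes. The count of members at least 2-fold higher (3) became 1 of 29 with quantile normalization (4.16% of all measured genes), 0 of 29 with loess (3.43%), 6 of 34 with a 25th-percentile limit (16.6%) or with no limit (19.5%), 2 of 28 with medians over probe sets (4.55%; Flt1 was lost), and 0 with a 75th-percentile limit or a 4-fold threshold. The count at least 2-fold lower (2) became 4 with centring (6.24%), quantile normalization (6.13%), loess (7.16%) or a 25th-percentile limit (7.45%), 5 with no limit (9.37%), 1 without _x_at and _s_at probe sets (5.28%; Sox17 was lost), and 0 with a 75th-percentile limit or a 4-fold threshold. The median of all members (0.057) became -0.097 with quantile normalization, -0.12 with loess and -0.15 with a 75th-percentile limit. The pan-endothelial median (0.16) became -0.075, -0.071 and -0.26 under the same settings, -0.44 with a 25th-percentile limit and -0.43 with no limit. The blood vessel median (0.56) became 0.15 with a 75th-percentile limit and 0.28 with medians over probe sets. The transcription factor median (-0.60) became -0.89 with quantile normalization, -0.92 with loess and with a 75th-percentile limit (where it is the value of Ets1 alone), -0.12 with a 25th-percentile limit and with no limit, -0.16 with medians over probe sets and -0.13 without _x_at and _s_at probe sets. The lymphatic median stayed within that tolerance in all 8 alternatives, but the tolerance is widest for this group of 4 genes. That median changed sign, from -0.058 to 0.14, with medians over probe sets, and rested on 2 genes with a 75th-percentile limit. Of 205 ratios of single members under the alternatives, 194 moved by less than 0.56, and of 227 ratios of single probe sets 212 did. Part of this was fixed in advance. Centring shifts every ratio equally, and a median over probe sets leaves the 18 members with 1 probe set unchanged. Ratios not measured under both the main setting and the alternative were left out, so Pecam1, Tie1 and Fli1 were not counted. The cause of the shifts listed above was not tested. Medians of 4 other lists were recomputed as well, a choice made after seeing the data, and 22 of 32 stayed within the tolerance. Signals near the limit restrict what can be said of dim members such as Erg, Fli1, Tal1 and Pecam1.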

Other observations

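Genes of blood cell precursors, which fetal vessels carry, were listed with the vessel markers. Of 7 on the array, 6 were measured, 1 was at least 2-fold higher and 0 lower in the null-labelled tissue, with a median log2 ratio of 0.58. Myb, a factor of blood progenitors, read 1193 and 2502, 2.10-fold higher. Runx1, which endothelium uses to give rise to blood cells, read 1283 and 1967, 1.53-fold higher, at the probe set used, while others read 1399 and 1700, 646 and 603, and 875 and 866. Kit, a receptor that blood progenitors share with other cells, read 1127 and 1230.

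Genes of neighbouring organs had no common direction. Of 15 on the array, 10 were below the limit in wild-type and 5 in null-labelled tissue, and 10 were measured, with 2 at least 2-fold higher and 2 lower. Ratios of 7 were above 0, against 56.6% of all measured genes, with a median of 0.66. Bounds make up 5 of the 10, and over the 5 measured on both arrays the median was -0.45. Scgb3a2, a secretoglobin of airway epithelium, read 5302 and 692, 7.66-fold lower. Rag1, the recombinase of developing lymphocytes, read 256 and 2823, at least 5.77-fold higher.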
